A study of Arabidopsis thaliana with 12 samples.

Results

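The report describes 4 Arabidopsis thaliana genes of the plastid thiol-disulfide system: FTRB (AT2G04700), NTRC (AT2G41680), PRXIIE (AT3G52960) and SRX (AT1G31170). They were taken as the genes of this system with a probe of their own on the array, 4 of 691 such genes. Their probes are numbered 3436, 1759, 1966 and 2656. The data held 3439 probes, whose numbers run past 3439, so a number is not a rank among them. The samples were total RNA of wild-type plants of the ecotype C24. In the control group the plants grew in PSI light, that is, light specific for photosystem I. In the other group they grew in the same light and were treated with DCMU, which blocks the transfer of electrons from photosystem II to plastoquinone. Each group held 6 array columns, numbered as 6 samples. Columns 1 and 2, 3 and 4, and 5 and 6 were near duplicates in their values, although no label ties them together. Each such pair was averaged and is called a hybridisation here, so that n = 3 per group. With the 12 columns as separate replicates all 4 genes also passed the test used below. So did 2109 of the 3439 probes, against 1483 with the pairs averaged, because near duplicates then count as independent. The sources used here give no tissue, no age of the plants, no dose and no length of treatment.

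Plastid enzymes are switched by the reduction of disulfide bonds, and electrons reach them by separate routes. FTRB is the catalytic subunit of ferredoxin-thioredoxin reductase, which passes electrons from photosynthetically reduced ferredoxin to thioredoxins, so this route depends on light. NTRC is an NADPH-dependent thioredoxin reductase with a thioredoxin domain of its own and is known as a reductant of the plastid 2-Cys peroxiredoxins. PRXIIE is a plastid type II peroxiredoxin, an enzyme that reduces hydrogen peroxide and organic peroxides through a reactive cysteine. SRX, sulfiredoxin, repairs 2-Cys peroxiredoxins whose cysteine has been overoxidised. DCMU stops linear electron flow and with it the supply of electrons from water to ferredoxin.

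The probe of the peroxiredoxin PRXIIE gave a higher signal with DCMU, and the probes of FTRB, NTRC and SRX gave lower signals. After quantile normalisation PRXIIE rose 2.21-fold, SRX fell 1.96-fold, NTRC fell 1.76-fold and FTRB fell 1.37-fold. All 4 passed limma's test at an adjusted p of 0.05, a threshold that 43.1% of all probes passed; 25.0% of all probes passed as lower and 18.1% as higher. That balance depends on the processing: 425 probes were higher and 1172 lower with no scaling, and 842 higher and 762 lower after a correction for probe number, against 624 and 859 as reported. The median log2 fold change of the 4 genes was -0.64, against -0.06 over all probes. A change as large as that of PRXIIE, in either direction, was reached by 15.2% of all probes, and a change as large as that of SRX, NTRC and FTRB by 21.6%, 29.9% and 53.4%. The calls of NTRC and FTRB were lost after a correction for probe number, that of NTRC also without any 1 of 5 hybridisations, and that of SRX without any 1 of 4. Fewer cells of a type and less RNA per cell cannot be told apart in these samples.

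**Figure D1:**
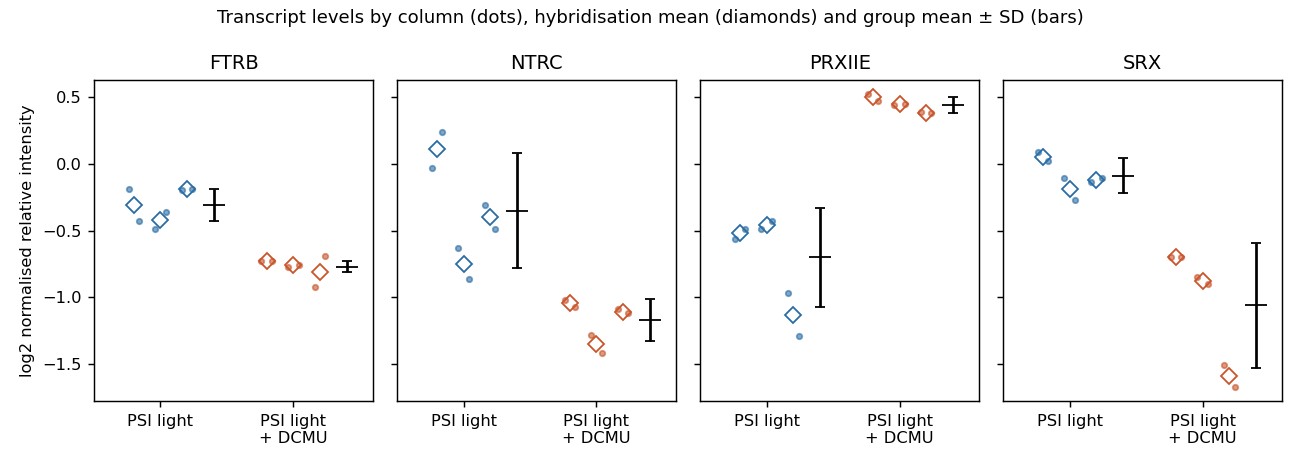
Log2 normalised relative intensity (vertical axis) of the 4 genes in PSI light (blue) and PSI light + DCMU (orange). Dots are columns, diamonds the means of a pair of columns, and bars the group mean ± SD (n = 3); the groups are separate for all 4 genes, with PRXIIE alone higher with DCMU.

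The deposited values were relative intensities, with the brightest probe of each column at 100. FTRB, of the ferredoxin route, had deposited intensities of 0.81 to 1.04 in PSI light, with a median of 0.923 over 6 columns. With DCMU they ran from 0.401 to 0.585, with a median of 0.52. The highest DCMU column thus lay below the lowest PSI light column. After normalisation the hybridisation means were -0.31, -0.42 and -0.19 log2 units in PSI light and -0.73, -0.76 and -0.81 with DCMU. The group means were -0.31 ± 0.12 and -0.77 ± 0.04 (SD, n = 3). FTRB fell by 0.46 (SE 0.07, 95% interval -0.64 to -0.27, limma adjusted p = 0.00819). This was the smallest change of the 4 genes and the one with the smallest SE.

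NTRC, of the NADPH route, ran from 0.629 to 1.4 in the deposited PSI light columns, with a median of 0.835. With DCMU it ran from 0.347 to 0.492, with a median of 0.367. The DCMU columns all lay below the PSI light columns. The normalised hybridisation means were 0.11, -0.75 and -0.40 in PSI light and -1.04, -1.35 and -1.11 with DCMU. In PSI light the hybridisation of columns 1 and 2 was high and that of columns 3 and 4 low, and this gave NTRC the widest PSI light spread of the 4 genes. The group means were -0.35 ± 0.43 and -1.17 ± 0.16 (SD, n = 3). NTRC fell by 0.82 (SE 0.24, 95% interval -1.45 to -0.19, limma adjusted p = 0.0481), the closest of the 4 to the threshold. Left without PSI light columns 3 and 4 it passed (adjusted p = 0.0295), and left without any other hybridisation it did not. Without PSI light columns 1 and 2, which held its highest values, the log2 fold change was -0.58 (adjusted p = 0.0594), and without the others it was -0.89 to -0.74 (adjusted p = 0.0946 to 0.13).

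PRXIIE, the peroxidase of the group, ran from 0.428 to 0.844 in the deposited PSI light columns, with a median of 0.802. With DCMU it ran from 1.07 to 1.36, with a median of 1.19. All DCMU columns lay above all PSI light columns. The normalised hybridisation means were -0.52, -0.46 and -1.13 in PSI light and 0.50, 0.45 and 0.38 with DCMU. The low value belonged to PSI light columns 5 and 6, whereas the DCMU hybridisations lay close together. The group means were -0.70 ± 0.37 and 0.44 ± 0.06 (SD, n = 3). PRXIIE rose by 1.15 (SE 0.20, 95% interval 0.63 to 1.66, limma adjusted p = 0.0106). With PSI light columns 5 and 6 left out the rise was 0.93 (adjusted p = 0.0038), and without any other hybridisation it was 1.13 to 1.28 (adjusted p = 0.019 to 0.04). With no scaling of the deposited values it stood at 0.79 and did not pass (adjusted p = 0.0521).

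SRX, the repair enzyme, ran from 0.936 to 1.28 in the deposited PSI light columns, with a median of 1.02. With DCMU it ran from 0.242 to 0.597, with a median of 0.486. The groups did not overlap. The normalised hybridisation means were 0.05, -0.19 and -0.12 in PSI light and -0.70, -0.88 and -1.59 with DCMU. Here the spread lay in the DCMU group, where columns 5 and 6 stood lowest. The group means were -0.09 ± 0.13 and -1.06 ± 0.47 (SD, n = 3). SRX fell by 0.97 (SE 0.26, 95% interval -1.64 to -0.30, limma adjusted p = 0.0362). Without DCMU columns 5 and 6 the log2 fold change was smaller, at -0.70, and passed (adjusted p = 0.0176). Without any 1 of the PSI light hybridisations it was -1.03 to -0.88 and did not pass (adjusted p = 0.0768 to 0.102), nor did it without DCMU columns 3 and 4 (-1.07, adjusted p = 0.0722). With the replicate number as a block the adjusted p of SRX was 0.0528.

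No column of the 4 genes was at the floor of 0.11 relative intensity set for dim probes. The 6 deposited values per group did not overlap for any of the 4 genes, which held for 48.1% of all probes, and the 6 normalised values did not overlap for any of them, which held for 43.5%. The scale of the arrays differed between the groups: PSI light columns had medians of 0.542 to 0.584, and DCMU columns of 0.386 to 0.504. With no scaling the median log2 fold change of all probes was -0.32, and those of FTRB, NTRC, PRXIIE and SRX were -0.85, -1.18, 0.79 and -1.35. Relative to that median they stood at -0.53, -0.86, 1.11 and -1.03.

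The rank of a probe within its column does not depend on any scaling factor. PRXIIE stood at percentiles 39.9 to 67.7 of its columns in PSI light and at 86.0 to 87.8 with DCMU. SRX moved the other way, from percentiles of 72.3 to 80.8 to percentiles of 30.1 to 59.0. NTRC stood at 53.8 to 83.7 in PSI light and at 36.4 to 48.5 with DCMU. FTRB moved least, from 65.8 to 74.6 in PSI light to 51.7 to 59.4 with DCMU. The ranks of the groups thus did not overlap for any of the 4 genes. Quantile normalised values follow these ranks, so this repeats the separation of the normalised values, which 43.5% of all probes showed.

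**Figure D2:**
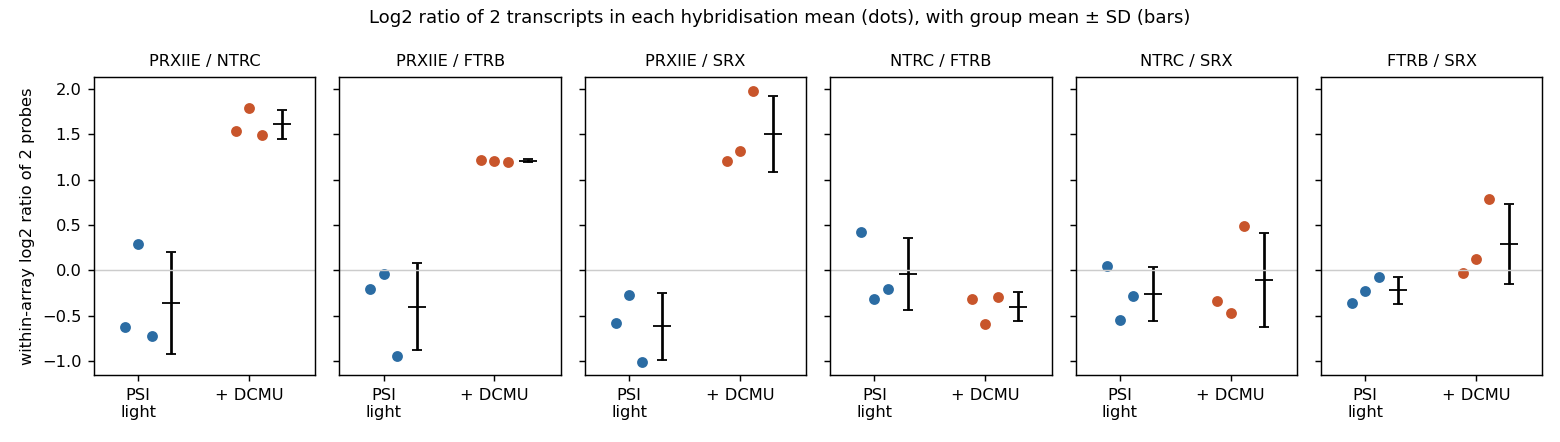
Log2 ratio of the intensities of 2 probes within the same hybridisation (vertical axis), for the 6 pairs of genes, in PSI light (blue) and with DCMU (orange). Dots are hybridisation means and bars the group mean ± SD (n = 3); the ratios of PRXIIE to the other genes are 1.60 to 2.12 higher with DCMU.

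Ratios between probes of the same array compared the responses of the genes with each other. The log2 ratio of PRXIIE to NTRC was -0.63, 0.29 and -0.73 in the PSI light hybridisations and 1.54, 1.79 and 1.49 with DCMU. It was 1.97 higher with DCMU, a 3.91-fold difference in response. The ratio of PRXIIE to SRX, the enzyme that acts on other peroxiredoxins, went from -0.62 ± 0.37 to 1.50 ± 0.42 (SD, n = 3), a difference of 2.12. The ratio of PRXIIE to FTRB went from -0.40 ± 0.48 to 1.21 ± 0.02, a difference of 1.60, and its DCMU values of 1.22, 1.21 and 1.19 were the closest of any pair. On unscaled intensities these 3 differences were 1.98, 2.14 and 1.64. In each of the 3 pairs the hybridisations of the groups were separate. This had to be so, because all DCMU hybridisation means of PRXIIE lay above its PSI light means. Those of NTRC, FTRB and SRX all lay below theirs. How often the ratios of other probe pairs separate was not tested. For these 3 pairs the exact permutation test could only return its smallest value, and it adds nothing to the single-gene results. The two-sided exact permutation test gave p = 0.1 for each, the smallest it can give for 3 against 3, and 0.15 after adjustment over the 6 pairs.

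Among the 3 lowered genes the ratios differed less. The log2 ratio of NTRC to FTRB was -0.04 ± 0.40 in PSI light and -0.40 ± 0.16 with DCMU (SD, n = 3), a difference of -0.36 with overlapping groups (two-sided exact permutation test, p = 0.3, adjusted 0.36). That of NTRC to SRX was -0.26 ± 0.30 and -0.11 ± 0.52, a difference of 0.15, also with overlapping groups (exact permutation test, p = 0.7, adjusted 0.7), and of -0.15 without DCMU columns 5 and 6. The ratio of FTRB to SRX was 0.51 higher with DCMU, without overlap of the groups, from -0.22 ± 0.15 to 0.29 ± 0.44 (exact permutation test, p = 0.1, adjusted 0.15). Columns 5 and 6 with DCMU stood at 0.79 and the other hybridisations at -0.03 and 0.12, and without columns 5 and 6 the difference was 0.26. With so few hybridisations these tests do not show that the genes responded alike.

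**Figure D3:**
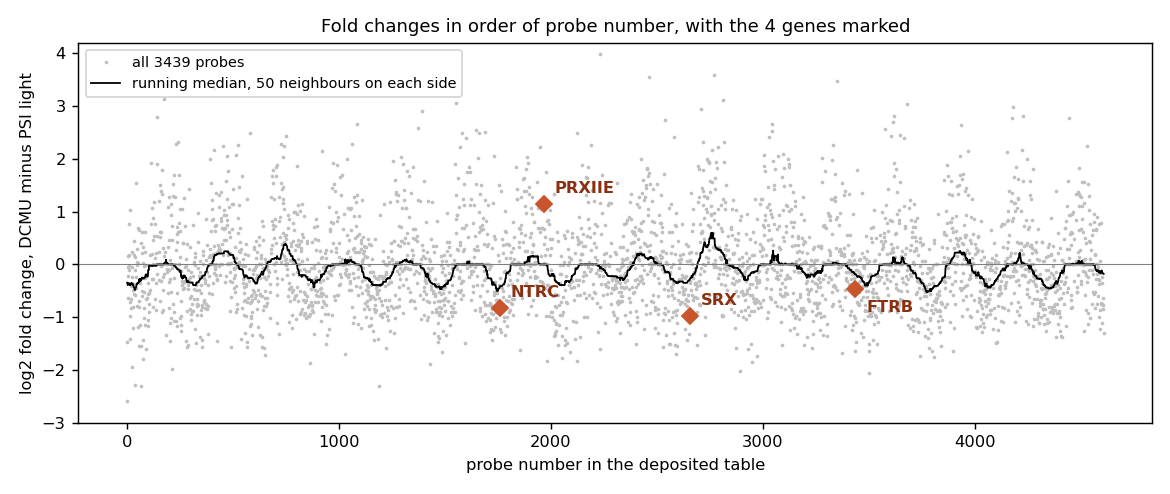
Log2 fold change of all 3439 probes (grey dots, vertical axis) in order of probe number (horizontal axis), with the running median over each probe and its 100 neighbours (black line) and the 4 genes (orange diamonds). The line rises and falls at regular steps; NTRC, FTRB and SRX lie where it is below 0, and PRXIIE where it is at 0.

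Fold changes were not spread evenly along the probe numbers, which touches the 3 lowered genes. A single wave with a period of 288 probe numbers held 14.9% of the variance of the fold changes of all probes, with an amplitude of 0.45 log2 units. This period fitted best among those from 100 to 600. At the probe of NTRC the wave stood at -0.46, its lowest point, at that of SRX at -0.32 and at that of FTRB at -0.23, but at PRXIIE it was at 0.05. Over the 100 probes numbered next to NTRC the median log2 fold change was -0.42, and 37.0% of them passed as lower. That share was 30.0% next to FTRB, 22.0% next to SRX and 18.0% next to PRXIIE, beside 25.0% of all probes. The probes next to SRX had a median log2 fold change of -0.27, those next to FTRB of -0.18 and those next to PRXIIE of 0.00. The fold change of SRX lay above those of 7 of its 100 neighbours and that of PRXIIE above 95, whereas NTRC lay above 27 and FTRB above 34. The sources used here do not say whether the numbering follows the position of the probes on the array.

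The fold changes were fitted again after the running median over each probe and its 100 neighbours had been subtracted in each hybridisation. PRXIIE then stood at 1.15 (limma adjusted p = 0.00111) and SRX at -0.74 (adjusted p = 0.013), both past the threshold. NTRC stood at -0.40 (adjusted p = 0.0924) and FTRB at -0.23 (adjusted p = 0.132), and neither passed. With 30 neighbours PRXIIE stood at 0.93 (adjusted p = 0.00287), SRX at -0.67 (adjusted p = 0.015), NTRC at -0.30 (adjusted p = 0.101) and FTRB at -0.03 (adjusted p = 0.847). The ratio of PRXIIE to SRX was 1.60 higher with DCMU after that correction, and those of PRXIIE to NTRC and FTRB were 1.23 and 0.96 higher.

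**Figure D4:**
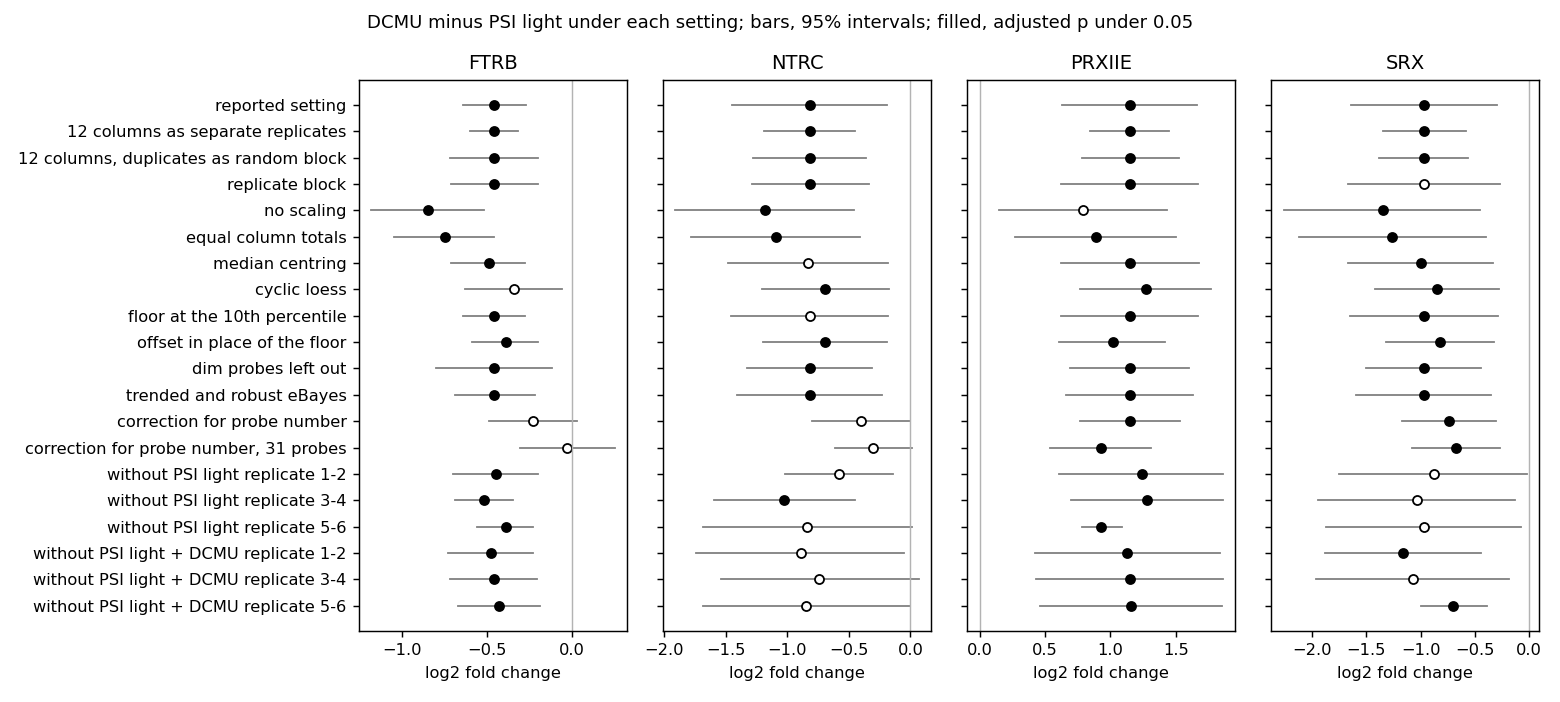
Log2 fold change, DCMU minus PSI light (horizontal axis), of the 4 genes under the reported setting and 19 alternatives (vertical axis), with 95% intervals. Filled points had an adjusted p under 0.05; all points of PRXIIE lie above 0 and all points of the other genes below it.

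Across the 19 alternatives the direction of all 4 genes was the same. PRXIIE passed in 18 of them, FTRB in 16, SRX in 14 and NTRC in 10. The log2 fold change ranged from 0.79 to 1.28 for PRXIIE, from -1.35 to -0.67 for SRX, from -1.18 to -0.30 for NTRC and from -0.85 to -0.03 for FTRB.

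The other genes of the system could be followed only in small part. The list of the thioredoxin system held 41 genes for thioredoxins, their reductases, ferredoxins and ferredoxin-NADP reductases. FTRB and NTRC alone had a probe of their own, 5 more genes lay on 3 probes shared by several genes, and 34 had no probe named for them. Of 18 genes for peroxiredoxins and related thiol enzymes, PRXIIE and SRX had a probe of their own and 1 lay only on shared probes. The 2-Cys peroxiredoxins, on which NTRC and SRX act, were not among the genes with a probe of their own. The values given here therefore do not describe either family as a whole.

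**Figure D5:**
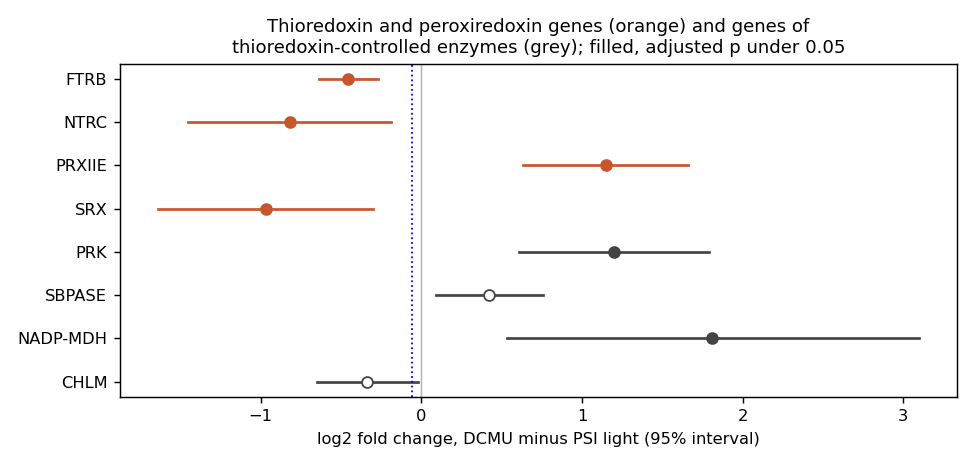
Log2 fold change with 95% interval (horizontal axis) of the 4 genes (orange) and of 4 genes for enzymes under thioredoxin control (grey). Filled points had an adjusted p under 0.05, and the dotted line is the median of all probes, -0.06; PRXIIE, PRK and NADP-MDH lie to the right and FTRB, NTRC and SRX to the left.

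Enzymes that thioredoxin or NTRC controls were represented by 4 of 15 listed genes. Of these, 2 rose, none fell and 2 did not pass, beside 43.1% of all probes that passed, and the median log2 fold change was 0.81. NADP-MDH (AT5G58330), the chloroplast malate dehydrogenase that exports reducing power, had hybridisation means of -2.03, -0.24 and -1.34 in PSI light and 0.86, 0.65 and 0.33 with DCMU. Its PSI light hybridisation of columns 3 and 4 stood well above the others, and the hybridisation means of the groups did not overlap. Of all probes, 43.5% had no overlap of the 6 normalised columns per group. At least that share thus had no overlap of the hybridisation means, and the share itself was not computed. NADP-MDH rose by 1.81 (SE 0.50, limma adjusted p = 0.0388). Without PSI light columns 3 and 4 the rise was 2.32 (adjusted p = 0.0116), and without any other hybridisation it was 1.40 to 1.93 and did not pass (adjusted p = 0.0681 to 0.112). It did not pass with the replicate block (adjusted p = 0.0736), with no scaling (adjusted p = 0.0732) or with equal column totals (adjusted p = 0.065). PRK, phosphoribulokinase of the Calvin cycle, rose by 1.20 (SE 0.23, adjusted p = 0.014) but missed the threshold once PSI light columns 1 and 2 were left out (1.14, adjusted p = 0.0501). SBPASE, the sedoheptulose-bisphosphatase of the same cycle, stood at 0.42 on the log2 scale (adjusted p = 0.0512), or at 0.74 after the correction for probe number with 100 neighbours (adjusted p = 0.00472). Of the 19 alternatives, SBPASE passed in 7 and did not pass in 12. With no scaling it stood at 0.07 (adjusted p = 0.751) and with equal column totals at 0.16 (adjusted p = 0.431). CHLM, a methyltransferase of chlorophyll synthesis, stood at -0.34 (adjusted p = 0.0801). It passed as lower with no scaling (-0.71, adjusted p = 0.00317), with equal column totals (-0.62, adjusted p = 0.00374), over 12 columns (adjusted p = 0.00719) and without DCMU columns 1 and 2 (-0.21, adjusted p = 0.0448), and stood at 0.12 after the correction with 30 neighbours (adjusted p = 0.496).

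Genes with a similar profile were sought among the other genes with a probe of their own that was above the floor in all columns. The measure was the root mean square difference of the profiles over the 6 hybridisation means, each centred on its own mean, so that arrays and scaling are shared by all of them. Genes chosen in this way must change in nearly the same direction and amount as the gene they were matched to. Their fold changes and adjusted p-values, given below, are therefore no separate result. How near the closest of 545 probes would come by chance was not tested. Nearest to NTRC was TCP15, a transcription factor of the TCP family, at 0.13 log2 units; it fell by 0.81 (adjusted p = 0.0363), but its duplicate columns differed by up to 0.96. AT4G16610 followed at 0.163 and fell by 0.95 (adjusted p = 0.0116). Nearest to FTRB were AT2G23390 at 0.056 and AT2G03390 at 0.0853, which fell by 0.49 and 0.39. Nearest to PRXIIE were AT3G29410 at 0.0995 and AT2G26110 at 0.13, which rose by 1.10 and 1.16. AT2G23390 and AT3G29410 were dim, with lowest hybridisation means of -2.79 and -2.81 log2 units against a floor of -3.19. The duplicate columns of AT3G29410 differed by up to 0.55, and those of AT2G23390 by up to 0.35. Those of AT2G03390 differed by up to 0.39, about as much as its fall. For AT4G16610 and AT2G26110 the largest differences were 0.16 and 0.26.

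Nearest to SRX was a probe of AT2G25870, at 0.104, which fell by 1.0 (adjusted p = 0.0217). That probe is numbered 71 places from SRX, and a second probe of AT2G25870 rose by 1.04 (adjusted p = 0.00445), with duplicate columns that differed by up to 0.86; the probes of this gene thus disagreed. AT4G20820 followed at 0.141 and stood at -1.09 on the log2 scale (adjusted p = 0.0557). Its duplicate columns differed by up to 0.42, and its probe is numbered next to that of FTRB. Both shared with SRX a low value in DCMU columns 5 and 6, at -0.94 and -2.67, which the choice by likeness favours. None of the 4 genes was among the 2 nearest of another. FTRB lay at 0.307 from NTRC and SRX at 0.356 from NTRC, while PRXIIE lay at 0.847 to 1.11 from the others.

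The labels name no tissue. Of 23 genes of the photosystems, their antenna and Rubisco, 5 were measured by a single-gene probe, and all 5 lay above the floor in all 12 columns. So did at least 545 of the 692 probes with 1 gene, so lying above the floor says little about the tissue. The mean log2 levels in PSI light and with DCMU were 4.39 and 4.48 for PSBW and 3.81 and 3.23 for LHB1B2. They were 1.85 and 1.54 for PSB27, 1.42 and 1.66 for PSAN, and -0.33 and 0.28 for PSBY. What these levels say about the tissue was not tested. Of the 5 genes, 1 fell, beside 25.0% of all probes, and 4 did not pass. None of 10 root genes had a probe of its own, so RNA from roots could not be assessed.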

How the data were processed

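The authors deposited 1 intensity per probe and column, relative to the brightest probe; the sources used here do not say whether a background was subtracted. These deposited intensity values were quantile normalised, raised to a floor of 0.11 relative intensity (percentile 5 of all values above 0) and turned to log2. Within a group, columns 1 and 2, 3 and 4, and 5 and 6 correlated at Spearman's rho of 0.975 to 0.991 and other columns at 0.92 to 0.959, so each such pair was averaged. No label states separate cultures or plants, and the p-values may thus reflect technical spread alone. limma 3.58.1 in R 4.3.3 was fitted over all 3439 probes, with Benjamini-Hochberg adjustment. Python 3.11.15 and scipy 1.17.1 gave the exact permutation tests.

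The deviations of same-numbered hybridisations from their group means correlated at 0.099 to 0.306, all positive, which does not settle whether they were paired. The reported fit did not treat them as paired, and the fit with the replicate number as a block is among the alternatives. Gene names came from the platform annotation and the TAIR10.1 reference: 692 probes had 1 gene, 870 several and 1877 none. The reference gives no symbol for FTRB, PRXIIE and NADP-MDH, whose names come from the lists. The members, lists, tests and alternatives were chosen with earlier results of these data known. Named are the 4 genes, every list gene with a probe of its own and, for each of the 4, the 2 genes of nearest profile. The number of arrays limits the precision.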

Additional observations from a re-analysis of the deposited data

Results flagged for a closer look

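In 1 of 8 groups of 6 columns (the 4 genes in both groups), a column lay far from the others. FTRB with DCMU stood at -0.92 log2 units in column 5, against -0.77 to -0.69 in the other columns, a gap of 0.67 of the group's range. Its deposited intensity there was 0.401, against at least 0.479 in the others. About 1 in 20 groups is picked by chance if columns are independent, which duplicates are not.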

How the results depend on the processing

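Each of the 4 genes was fitted under 19 alternatives. Of these 76 values, 58 kept direction and side of the threshold, 18 no longer passed and none was reversed. Some alternatives, such as the replicate block, leave the log2 fold change as it was, so no reversal was possible in them. NTRC did not pass with median centring (-0.83), with the floor at the 10th percentile (-0.82) or with the correction for probe number over 100 (-0.40) or 30 neighbours (-0.30), and ranged from -1.03 to -0.58 without 1 hybridisation. FTRB did not pass with cyclic loess (-0.34) or the same corrections (-0.23 and -0.03), nor PRXIIE with no scaling (0.79). SRX did not pass with the replicate block (-0.97) and ranged from -1.16 to -0.70 without 1 hybridisation. The replicate block changed no call of the other 3 genes. With dim probes left out, 798 probes passed (336 higher, 462 lower), against 1483 (624 higher, 859 lower), with fewer probes tested. The balance was 425 higher and 1172 lower with no scaling, 474 and 1058 with equal column totals, and it turned with the correction for probe number, to 842 and 762 (100 neighbours) or 869 and 750 (30 neighbours). The log2 ratios of PRXIIE moved with the correction for probe number, to 1.55 (100 neighbours) and 1.23 (30 neighbours) for NTRC and, with 30, to 0.96 for FTRB and 1.60 for SRX. CHLM was reversed by the correction over 30 neighbours (0.12). The correction over 30 neighbours and the ranks were chosen after seeing the data. The cause of these changes was not tested.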
